A study of Caenorhabditis elegans with 23 samples.

Results

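The loci described here are stretches of the Caenorhabditis elegans genome whose RNA was low in worms lacking the Argonaute gene hrde-1. Their RNA was also low after hrde-1 had been restored, and they were chosen for this. They are R10E4.1, a protein-coding gene on chromosome III, and the neighbouring pseudogenes WBGene00014307 and WBGene00014309 on chromosome II. A window at F28F8.7 on chromosome V, also low in hrde-1 mutants but not after repair, was chosen as a contrast. The loci were picked by position: 2 windows of 1 kb at R10E4.1, 6 at the pseudogenes and 1 at F28F8.7, making 9 windows of 100257 in the deposited table. They had been chosen for their levels in the same 19 libraries. Differences between hrde-1 states at these windows are therefore given as a description, with no test.

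The study sequenced rRNA-depleted total RNA of whole young adult hermaphrodites, with 1 library for each genotype and generation. All 19 libraries came from this stage and sex. The alleles were tm1200 for hrde-1, ok1457 or red11 for set-32, and n4256 for met-2 with n5021 for set-25, the last 2 genes always being mutated together. The hrde-1(tm1200) worms carried tm1200 alone, or with met-2 set-25, with ok1457, with red11, or with red11 and met-2 set-25. The repaired worms, whose restored allele is written hrde-1(+R), were taken a few generations after repair. They were hrde-1(+R) at F4 and F5 with no other mutation, with met-2 set-25 at F3 and F5, with ok1457 at F5 and F8, with red11 at F4 and F5, and with red11 and met-2 set-25 at F5. The worms whose hrde-1 was never mutated carried ok1457, red11, ok1457 with met-2 set-25, or met-2 set-25, and the last was the wild-type strain N2. This gave 5 tm1200, 9 repaired and 5 never-mutated libraries. Because each genotype and generation has 1 library, different strains in the same hrde-1 state stand in for replicates. All tm1200 strains carry the same hrde-1 allele, and the repaired worms had hrde-1 restored. The hrde-1 state or history thus cannot be told apart from other inherited differences that go with it. Successive generations of a line are related by descent. Separate cultures are not named in the labels, so spreads and p-values measure only the differences between these libraries. The F20 libraries were not analysed here.

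The Argonaute protein HRDE-1 acts in germline nuclei, where small RNAs bound to it guide silencing of matching genes over generations. Loss of HRDE-1 is known for raising the RNA of its targets, so loci that are lower without it move the other way. MET-2 and SET-25 are histone methyltransferases of heterochromatin, and SET-32 is a SET-domain protein needed when nuclear silencing is first set up.

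R10E4.1 (WBGene00011198) lies at III 4269743 to 4272510 on the plus strand of the WBcel235 annotation. Its 2 chosen windows hold 536 and 359 bp of its exons. Its level in RPKM, reads scaled to window length and library size and here the mean over both windows, averaged 2.98 ± 1.89 in tm1200 worms (SD, n = 5), 3.503 ± 1.24 in repaired worms (SD, n = 9) and 22.3 ± 14.9 in never-mutated worms (SD, n = 5). The tm1200 mean was 13.4% of the never-mutated mean, and the repaired mean was 15.7% of it. In whole worms, fewer cells that express a gene and less RNA per cell cannot be told apart.

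Among the tm1200 libraries, R10E4.1 stood at 6.13 RPKM in hrde-1(tm1200) alone, 2.32 with met-2 set-25, 3.27 with ok1457, 1.63 with red11 and 1.58 with red11 and met-2 set-25. In the 9 repaired libraries the lowest value was 2.20, the median 2.98 and the highest 6.38 RPKM. The never-mutated libraries stood at 19.4 RPKM in ok1457, 14.2 in red11, 18.4 in ok1457 with met-2 set-25, 48.3 in met-2 set-25 and 11.3 in N2. The repaired and tm1200 ranges overlapped, and no library of either kind reached the lowest never-mutated library, which was N2. Most of the never-mutated spread came from the met-2 set-25 library, the highest of the 19.

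These low values rest on few reads. Summed over both windows, R10E4.1 had 2 to 7 reads in each tm1200 library, 4 to 14 in each repaired library and 16 to 77 in each never-mutated library. One read was worth 0.867 to 2.18 RPKM, depending on the library. At this depth a difference of a few RPKM between a tm1200 and a repaired library was not detectable.

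**Figure D1:**
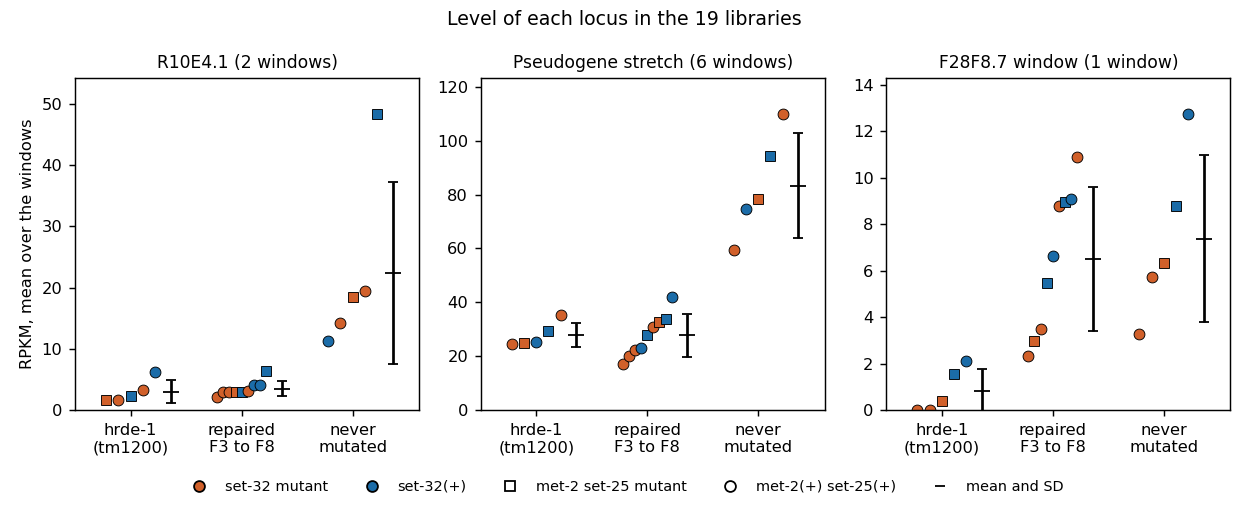
Level of R10E4.1 (mean over 2 windows), the pseudogene stretch (mean over 6 windows) and the F28F8.7 window in RPKM, on linear axes that differ between panels; each point is 1 of the 19 libraries, grouped as hrde-1(tm1200), repaired and never mutated, and bars are the mean and SD. At R10E4.1 and the pseudogenes all repaired libraries sit below all never-mutated ones, at 6.38 and 42.1 RPKM at most, while at F28F8.7 they all sit above the tm1200 libraries, and 7 of 9 lie within the never-mutated range.

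The first window of the gene, III 4270001 to 4271000, carried most of its reads. It held 5.25, 4.64, 4.36, 3.25 and 3.15 RPKM in the tm1200 libraries, between 0.97 and 9.11 RPKM in the repaired ones (median 4.04), and 27.2, 18.6, 25.3, 66.6 and 15.6 RPKM in the never-mutated ones. The ranges of tm1200 and never-mutated libraries did not overlap there, nor did those of repaired and never-mutated libraries. Over all tested windows, tm1200 lay wholly below never-mutated libraries at 0.486%, and repaired libraries did so at 0.0726%. On the log2(RPKM + 1) scale used for all differences, which understates changes of low windows, the difference from never-mutated worms was -2.45 ± 0.36 (SE) for tm1200 and -2.49 ± 0.36 for repaired worms. The repaired and tm1200 libraries differed by -0.04 ± 0.36 in this window.

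The second window, III 4271001 to 4272000, was listed at 0 in 3 of the 5 tm1200 libraries, where 3 reads would have been worth 3.25 to 4.73 RPKM. The tm1200 highest was 7 RPKM, in hrde-1(tm1200) alone. The repaired libraries ran from 0.88 to 4.86 RPKM and the never-mutated ones from 7.08 to 30.1 RPKM. The groups again did not overlap, although the highest tm1200 library was within 1 read of the lowest never-mutated one. The log2 differences from never-mutated worms were -2.81 ± 0.55 for tm1200 and -2.002 ± 0.49 for repaired worms, and repaired minus tm1200 was 0.75 ± 0.49.

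The last exon of R10E4.1 falls in the next window, III 4272001 to 4273000, just outside the chosen ones, with 510 bp of exon. Its level ran from 0 to 2.16 RPKM in tm1200 libraries, from 0 to 2.37 in repaired libraries and from 4.25 to 10.1 in never-mutated libraries. This window of the same gene was thus also low in both tm1200 and repaired worms, by -1.97 and -2.39 on the log2 scale. The window just before the chosen ones, mostly sftb-1 with 54 bp of the first exon of R10E4.1, averaged 8.62 ± 5.28, 9.90 ± 4.26 and 11.1 ± 6.11 RPKM in tm1200, repaired and never-mutated worms (SD), well within the spread.

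The neighbours of R10E4.1 did not share its pattern. The gene sftb-1, which encodes a core splicing factor, lies on the opposite strand next to R10E4.1, at III 4263786 to 4269270. Its log2 differences from never-mutated worms, over the 5 windows that it fills, stayed between -0.29 and 0.05 in tm1200 and between -0.14 and 0.12 in repaired worms. On the other side sup-26, which encodes an RNA-binding protein, stood between -0.33 and 0.26 in tm1200 and between -0.61 and -0.30 in repaired worms. Of the 17 tested windows within 10 kb of the chosen ones, none was called in tm1200 against never-mutated worms, and 1, the last exon of R10E4.1 itself, was called in repaired against never-mutated worms. A window counts as called at a limma adjusted p under 0.05 with a log2 difference of at least 1 in size. The mutated gene hrde-1 also lies on chromosome III, and its end is 93.6 kb from the start of R10E4.1. Between the genes 74 windows were tested, and 0 were called in either comparison, with a median log2 difference of -0.05 for tm1200. Over all tested windows 0.0242% were called lower and 0.37% higher in tm1200, and 0.0169% and 0.0315% in repaired worms. With shares this small, a count of 0 says little about these windows.

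The pseudogene stretch on chromosome II was higher in level and thus more precisely measured. The 6 windows from II 8784001 to 8790000 hold WBGene00014307 (8784535 to 8785513), WBGene00014308 (8786457 to 8787119), which lies between the chosen pair, and WBGene00014309 (8787770 to 8789716), all annotated on the plus strand. Averaged over the stretch, RNA stood at 27.8 ± 4.56 RPKM in tm1200 worms (SD, n = 5), 27.8 ± 7.95 in repaired worms (SD, n = 9) and 83.3 ± 19.3 in never-mutated worms (SD, n = 5). The tm1200 and repaired means were 33.4% and 33.3% of the never-mutated mean.

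By library, the stretch held 25.4 RPKM in hrde-1(tm1200) alone, 29.2 with met-2 set-25, 35.2 with ok1457, 24.3 with red11 and 24.9 with red11 and met-2 set-25. The repaired libraries had a lowest value of 16.9, a median of 27.8 and a highest value of 42.1 RPKM. The never-mutated libraries stood at 109.9 RPKM in ok1457, 59.3 in red11, 78.5 in ok1457 with met-2 set-25, 94.2 in met-2 set-25 and 74.8 in N2. Again the repaired and tm1200 ranges overlapped, and both lay below every never-mutated library. The repaired range was the wider, with 4 of its 9 libraries below all tm1200 libraries, 4 within their range and 1 above it. The reads behind these values were 87 to 135 in each tm1200 library, 84 to 223 in each repaired library and 317 to 460 in each never-mutated library.

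The fall was not even along the stretch. At WBGene00014307 the first window averaged 5.73 ± 3.14, 6.82 ± 3.72 and 32.4 ± 11.5 RPKM in tm1200, repaired and never-mutated worms (SD), and the second averaged 5.67 ± 2.44, 8.77 ± 4.33 and 36.7 ± 14.1 RPKM. Their log2 differences from never-mutated worms were -2.39 ± 0.37 and -2.51 ± 0.34 (SE) in tm1200, and -2.17 ± 0.37 and -2.004 ± 0.36 in repaired worms. These were the largest differences of the stretch, at its start.

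The window of WBGene00014308 stood apart. It averaged 6.02 ± 3.41, 5.00 ± 2.76 and 12.1 ± 9.71 RPKM (SD), with never-mutated libraries from 3.29 in red11 to 27.2 in ok1457, so that the groups overlapped. Its log2 differences, -0.73 ± 0.47 in tm1200 and -0.89 ± 0.41 in repaired worms, were not called.

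WBGene00014309 was the most abundant of the pseudogenes. Its central window, II 8788001 to 8789000, held 70.0, 85.1, 118, 82.2 and 74.0 RPKM in the tm1200 libraries, between 49.6 and 115 in the repaired ones (median 83.3), and 278, 168.7, 234.95, 269 and 189.7 in the never-mutated ones. The highest tm1200 or repaired value, 118 RPKM, stayed below the lowest never-mutated value. The log2 difference from never-mutated worms was -1.40 ± 0.19 in tm1200 and -1.42 ± 0.18 in repaired worms, and repaired minus tm1200 was -0.00 ± 0.18. The end of the pseudogene, in the next window, differed by -1.80 ± 0.21 in tm1200 and -1.69 ± 0.23 in repaired worms. The window at its start, which it shares with the tail of WBGene00014308, had differences of -1.12 ± 0.24 in tm1200 and -1.44 ± 0.25 in repaired worms.

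Just outside the stretch all groups were near the floor, so a fall of the same size would hardly have been seen there. The window just before it, in sgn-1, averaged 3.70 ± 1.67, 2.30 ± 1.91 and 2.75 ± 1.36 RPKM in tm1200, repaired and never-mutated worms (SD), and the window just after it, in F07H5.13, averaged 3.70 ± 1.67, 2.57 ± 2.10 and 2.65 ± 1.68 RPKM. The nearby gene let-19, a Mediator subunit of the transcription machinery, showed log2 differences between -0.57 and 0.54 in tm1200 and between -0.54 and 0.34 in repaired worms. None of the 12 tested windows within 10 kb was called in either comparison, which is near the small shares called over all windows.

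**Figure D2:**
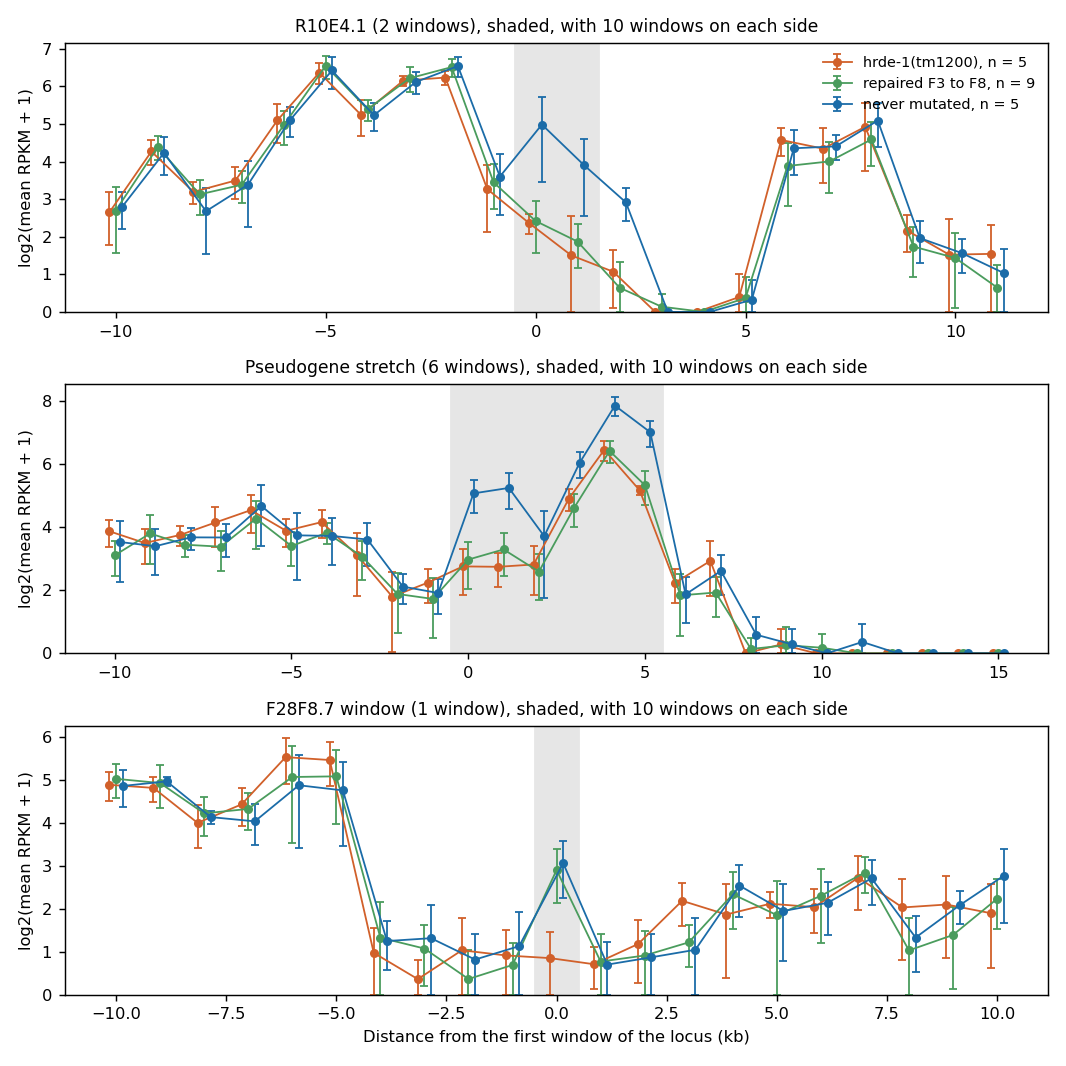
Mean level in log2(mean RPKM + 1) of 1 kb windows against distance in kb from the first window of R10E4.1, the pseudogene stretch and the F28F8.7 window, for hrde-1(tm1200) (n = 5), repaired (n = 9) and never-mutated (n = 5) worms; bars reach from the mean minus to the mean plus 1 SD, and the windows of each locus are shaded. At R10E4.1 and the pseudogenes the tm1200 and repaired lines run together below the never-mutated line and rejoin it outside the gene, while at F28F8.7 the tm1200 line runs low alone.

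In R10E4.1 and the pseudogenes every positive value was a whole multiple of 1 read, within 0.0051 RPKM, in all 8 windows. Values that are parts of a read were thus absent there.

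Across all 41323 windows tested, 10 were called lower in tm1200 than in never-mutated worms, or 0.0242%, and 8 of these were among the 9 chosen windows. The other 2 were hrde-1 and ttr-6. In repaired against never-mutated worms 7 windows were called lower, or 0.0169%, of which 6 were chosen windows and the 7th was the last exon of R10E4.1. The 6 windows called lower in both comparisons were all chosen ones. These contrasts selected the windows and share the never-mutated libraries, so nothing is read from these counts. Without the met-2 set-25 libraries 0 of the 9 chosen windows were called in either comparison. The first R10E4.1 and central WBGene00014309 windows then stood at -2.004 and -1.23 in tm1200, and at -1.98 and -1.34 in repaired worms. Without the never-mutated met-2 set-25 library alone, 3 chosen windows were called in repaired worms, and the first R10E4.1 window, at -1.99, was not one of them. All 9 windows passed the minimum mean of 1 RPKM.

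Counted by ranges, 11 windows, or 0.0266% of those tested, had all 5 tm1200 and all 9 repaired libraries below all 5 never-mutated ones. Of these, 7 were chosen windows (both of R10E4.1 and 5 of the 6 in the pseudogene stretch) and 1 was the last exon of R10E4.1. All 5 tm1200 libraries lay below all 5 never-mutated ones at 201 windows, or 0.486%. All 9 repaired libraries lay below all 5 never-mutated ones at 30 windows, or 0.0726%. The other 3 of the 11 windows were at frm-5.2, at phat-4 and at nspc-16 with nspc-17, at mean levels of 3.38, 13.1 and 7.85 RPKM in never-mutated worms. At phat-4 the highest tm1200 or repaired value was 9.29 and the lowest never-mutated value 9.86 RPKM. At frm-5.2 these values were 2.43 and 2.51 RPKM, and at nspc-16 with nspc-17 they were 5.63 and 5.84 RPKM. The gap was also narrow at the second chosen window of R10E4.1, where they were 7 and 7.08 RPKM. All these gaps were smaller than 1 read. With all 14 libraries above all 5 never-mutated ones there were 28 windows, or 0.0678%.

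The share of the gap from the tm1200 mean (0%) to the never-mutated mean (100%) that each repaired library had regained is given as a description, since the loci were chosen from these libraries as low or, for F28F8.7, not low after repair. At R10E4.1 it averaged 2.69% ± 6.38 (SD, n = 9), from -4.07% in ok1457 at F8 to 17.6% in met-2 set-25 at F5. At the pseudogene stretch it averaged -0.04% ± 14.3, from -19.6% in red11 at F5 to 25.7% in hrde-1(+R) at F4. At the F28F8.7 window it averaged 86.7% ± 47.3, from 22.9% in red11 at F5 to 153.5% in ok1457 at F5.

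**Figure D3:**
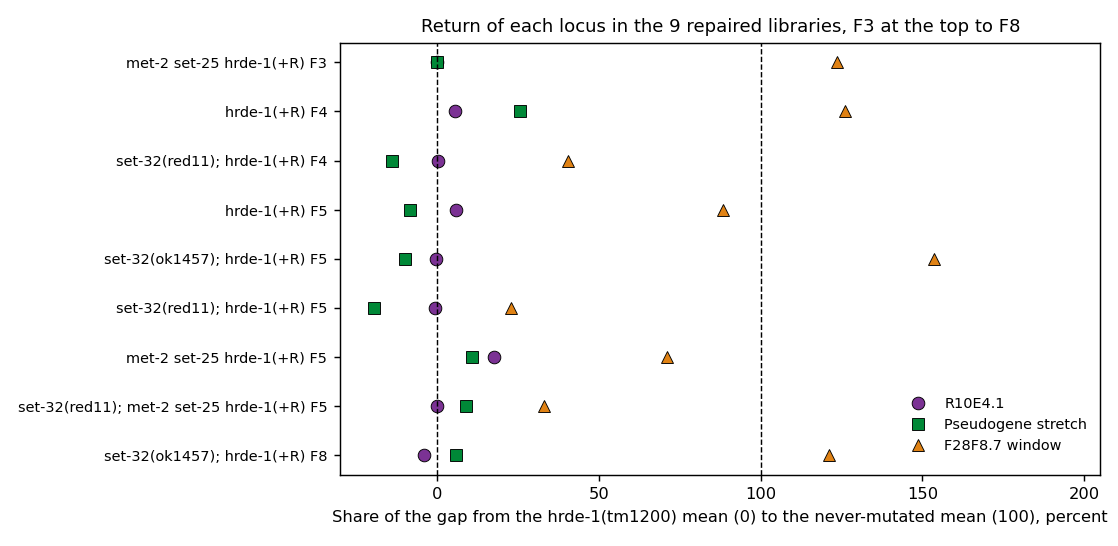
Share of the gap between the hrde-1(tm1200) mean (0%) and the never-mutated mean (100%) held by each of the 9 repaired libraries, from F3 at the top to F8, for R10E4.1 (circles), the pseudogene stretch (squares) and the F28F8.7 window (triangles). Circles and squares stay between -19.6% and 25.7%, and triangles lie between 22.9% and 153.5%.

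The later generation of a line was not regularly the higher one at the low loci. In 4 repaired lines an earlier and a later generation were sequenced. R10E4.1 was higher in the later generation in 2 of the 4 lines: 2.98 at F3 and 6.38 RPKM at F5 in met-2 set-25, and 4.04 at F4 and 4.14 RPKM at F5 in hrde-1(+R). The pseudogene stretch was likewise higher in 2 of 4, with 22.4 at F5 and 31.0 RPKM at F8 in ok1457, and 27.8 at F3 and 33.9 RPKM at F5 in met-2 set-25. In hrde-1(+R) it stood at 42.1 at F4 and 23.2 RPKM at F5. With 1 library per generation these steps have no replicate check.

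The selection did not use the set-32 and met-2 set-25 states as contrasts, so these were tested at R10E4.1 and the pseudogenes. The loci had, however, been chosen as low over repaired libraries with and without these mutations. A locus raised by either loss after repair would hardly have been chosen. The tests in repaired worms therefore cannot show that such loss has no effect. In repaired worms R10E4.1 averaged 2.80 ± 0.34 RPKM in set-32 mutants (SD, n = 5) and 4.38 ± 1.43 in set-32(+) worms (SD, n = 4). At its first window the log2 difference was -0.75, with a 95% interval of -1.79 to 0.29 (limma, adjusted p = 0.853). In never-repaired worms the same difference was -0.35, from -1.11 to 0.41 (adjusted p = 1). For the pseudogene stretch repaired set-32 mutants averaged 24.6 ± 6.94 and repaired set-32(+) worms 31.7 ± 8.17 RPKM. At the central window of WBGene00014309 the log2 difference was -0.21, from -0.68 to 0.26 (limma, adjusted p = 0.918), in repaired worms and 0.11, from -0.30 to 0.52 (adjusted p = 1), in never-repaired worms. None of the 8 windows of these loci passed the threshold in either comparison, where 0.075% of all windows were called higher in repaired set-32 mutants, 0% lower, and 0% in either direction in never-repaired ones. In never-repaired worms 1468 windows had an unadjusted p under 0.05.

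Whether the difference between repaired and never-mutated worms itself depended on set-32 was tested as an interaction. It was -0.26 at the first R10E4.1 window, with a 95% interval of -1.74 to 1.22 (limma, adjusted p = 0.999), and -0.23 at the central WBGene00014309 window, from -0.99 to 0.52 (adjusted p = 0.999). Both intervals are wide, and dependence on set-32 of about 1 log2 unit at R10E4.1 could not have been seen. No chosen window of the 8 passed, against 0.029% of all windows called higher. The interaction is built on the repaired against never-mutated difference that chose the windows, so nothing is concluded from this.

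Loss of met-2 and set-25 gave no called difference either. In never-repaired worms the met-2 set-25 mutants differed from met-2(+) set-25(+) worms by 0.39 on the log2 scale at the first R10E4.1 window, from -0.37 to 1.15 (limma, adjusted p = 0.953), and by 0.08 at the central WBGene00014309 window, from -0.32 to 0.49 (adjusted p = 0.986). In repaired worms the differences were -0.04, from -1.13 to 1.05 (adjusted p = 0.995), and 0.22, from -0.28 to 0.72 (adjusted p = 0.912). The never-repaired differences pool tm1200 and never-mutated worms, whose plain means went opposite ways. At the first R10E4.1 window met-2 set-25 mutants and the rest averaged 45.9 and 20.5 RPKM when never mutated. In tm1200 worms they averaged 3.895 and 4.29 RPKM, from few reads. At the central WBGene00014309 window these means were 251.8 and 212.2, and 79.6 and 89.99 RPKM. The 45.9 joins libraries at 66.6 and 25.3 RPKM. A dependence on hrde-1 state was not tested. Both tests called few windows overall: 0.0121% lower and 0.0581% higher in never-repaired worms, and 0.0218% lower and 0.00484% higher in repaired worms.

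F28F8.7, the contrast, had been chosen as not low after repair, so its difference from the other loci is a description only. Its window, V 15585001 to 15586000, held 2.10 RPKM in hrde-1(tm1200) alone, 1.55 with met-2 set-25, 0 with ok1457, 0 with red11 and 0.39 with red11 and met-2 set-25. In the 9 repaired libraries the lowest value was 2.31, the median 6.62 and the highest 10.9 RPKM. The never-mutated libraries held 5.73 RPKM in ok1457, 3.29 in red11, 6.33 in ok1457 with met-2 set-25, 8.79 in met-2 set-25 and 12.7 in N2. All tm1200 libraries were below all repaired and all never-mutated ones. The repaired and never-mutated ranges overlapped, although 2 repaired libraries, both with red11, lay below every never-mutated one, at 2.31 and 2.97 RPKM. Having all 5 tm1200 libraries below all 9 repaired ones was found at 54 windows, or 0.131% of those tested. Having them below all 5 never-mutated ones was found at 201 windows, or 0.486%.

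In means, the F28F8.7 window stood at 0.81 ± 0.96 RPKM in tm1200 worms (SD, n = 5), 6.50 ± 3.11 in repaired worms (n = 9) and 7.38 ± 3.58 in never-mutated worms (n = 5). The log2 difference from never-mutated worms was -2.27 ± 0.48 (SE) in tm1200 and -0.26 ± 0.39 in repaired worms, and repaired minus tm1200 was 1.98 ± 0.39. The counts are very low: at most 1.2 reads in a tm1200 library, 2 to 11.2 in a repaired one and 3 to 9 in a never-mutated one. Where the window was listed at 0, 3 reads would have been worth 3.25 RPKM in the red11 and 6.54 RPKM in the ok1457 library. Of its 17 positive values 58.8% were whole multiples of 1 read, and the rest were parts of a read.

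Within the repaired worms the 3 red11 libraries of this window were lowest, at 3.47, 2.31 and 2.97 RPKM, and the 2 ok1457 libraries were among the highest, at 10.9 and 8.76 RPKM. The 4 set-32(+) libraries held 9.09, 6.62, 8.93 and 5.47 RPKM, all above the red11 libraries and overlapping with those of ok1457. In all 4 lines with an earlier and a later generation, the later one was lower at this window. These patterns were noticed after the values were seen. In never-repaired worms the set-32 mutants were lower than set-32(+) worms by -1.13 on the log2 scale, from -2.16 to -0.10, which did not pass the threshold (limma, adjusted p = 1). The met-2 set-25 difference was 0.10, from -0.93 to 1.13, in never-repaired worms (adjusted p = 0.995) and -0.38, from -1.41 to 0.64, in repaired worms (adjusted p = 0.926).

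The window is not the body of F28F8.7. The annotation places F28F8.7 at V 15578707 to 15590617 on the minus strand, with 258 bp of its exons in this window, and a pseudogene, WBGene00007165, at 15585067 to 15593185 on the plus strand, with 641 bp of exon there. The use of strand in counting is not given in the sources used here, so reads of the 2 genes cannot be told apart. Windows with exons of only 1 of these genes did not show the low tm1200 level. At the last windows of WBGene00007165, V 15591001 to 15593000, the log2 differences were -0.09 and -0.02, and in the 2 windows that hold 719 and 770 bp of F28F8.7 exons alone they were 1.00 ± 0.39 and 0.95 ± 0.34 (SE), none of them called.

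Those 2 exon windows, V 15579001 to 15581000, averaged 44.4 ± 15.8 RPKM in tm1200 worms (SD, n = 5), 32.9 ± 19.4 in repaired worms (n = 9) and 27.3 ± 17.3 in never-mutated worms (n = 5). The lowest levels were those of 3 libraries, singled out after their values were seen, that carry no mutation in hrde-1, set-32, met-2 or set-25: hrde-1(+R) held 7.07 at F4 and 5.80 RPKM at F5, and N2 held 3.54 RPKM. The other 16 libraries, each with at least 1 mutation in these genes, lay between 19.4 and 63.5 RPKM, and no value lay between the 2 sets. Repaired set-32 mutants averaged 45.9 ± 13.3 RPKM (n = 5) and repaired set-32(+) worms 16.6 ± 11.8 (n = 4), a comparison for which this gene had been singled out and which is not tested here. In repaired worms the met-2 set-25 mutants were higher by 1.75, from 0.96 to 2.55, and by 1.11, from 0.37 to 1.84, on the log2 scale, neither of which passed (limma, adjusted p = 0.301 and 0.625). These differences rest in part on the hrde-1(+R) libraries singled out above as low, so nothing is concluded from their intervals and p-values. Of the 19 positive values in each window, 52.6% and 31.6% were whole multiples of 1 read, and the rest were parts of a read. Parts of a read can come from reads divided between copies. The levels of these windows and of the shared window may thus include reads of other copies, which was not tested.

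**Figure D4:**
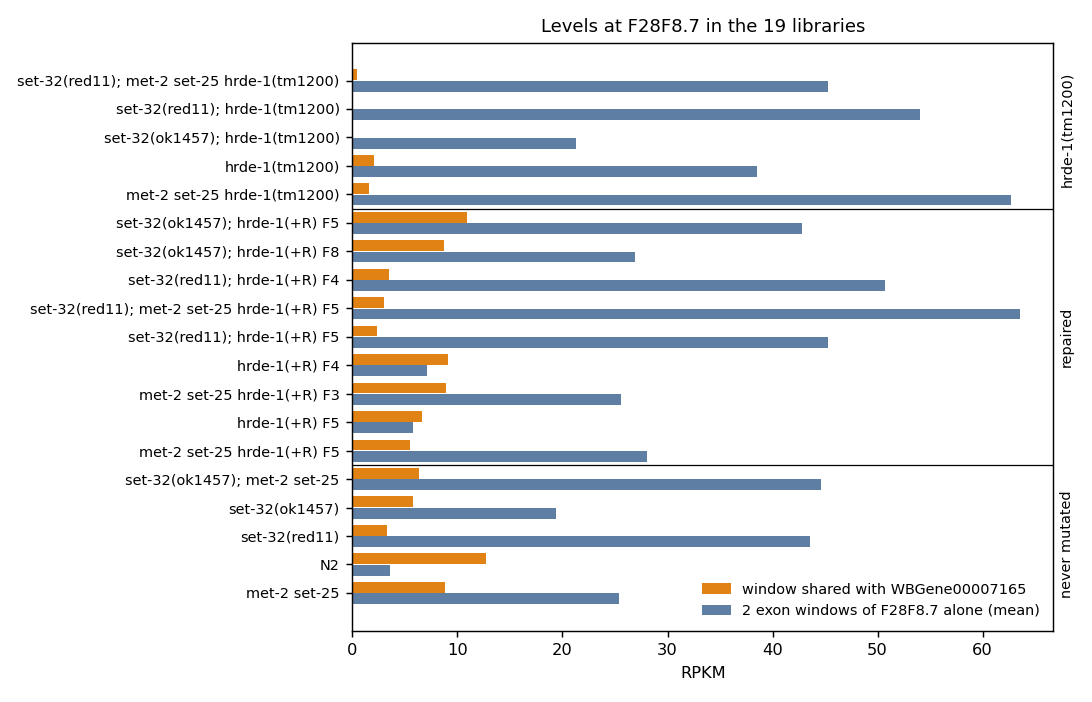
Level in RPKM at F28F8.7 in each of the 19 libraries, with hrde-1(tm1200) at the top, then repaired, then never mutated. The shared window overlaps the pseudogene WBGene00007165, and the 2 exon windows (mean) hold annotated exons of F28F8.7 and none of that pseudogene. Many values at both are parts of a read, so reads shared with other copies may be included. The shared window is at most 2.10 RPKM in tm1200 libraries, whereas the exon windows are low only in hrde-1(+R) F4, hrde-1(+R) F5 and N2, at 7.07, 5.80 and 3.54 RPKM.

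The windows with levels most like those of each locus were ranked by Pearson's r of log2(RPKM + 1) over the 19 libraries, outside 10 kb of the locus. All points share the same libraries and the same split by hrde-1 state, which selected the loci, so r is a description only. For R10E4.1 the first 4 windows were those of the pseudogenes (r = 0.867, 0.848, 0.846 and 0.826), followed by acs-3, which encodes an acyl-CoA synthetase (r = 0.707). For the pseudogene stretch the first were the first chosen window of R10E4.1 (r = 0.853) and the last-exon window of that gene outside the chosen ones (r = 0.809), then the autophagy gene epg-9 (r = 0.796), C17H12.8 (r = 0.772) and phat-4 (r = 0.763). For the F28F8.7 window they were C23G10.2 (r = 0.863), the DNA end-binding Ku gene cku-70 (r = 0.804), the ubiquitin-conjugating enzyme gene ubc-6 (r = 0.803), supr-1 (r = 0.801) and a window with no named gene (r = 0.799). Between loci, r was 0.872 for R10E4.1 with the pseudogenes, 0.44 for R10E4.1 with F28F8.7 and 0.373 for the pseudogenes with F28F8.7.

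Known parts of nuclear RNAi were set beside the loci from lists made with earlier results of these data known. Counts and p-values for the listed targets are therefore a description, and nothing is concluded from them. Of 19 placed and tested genes for nuclear RNAi factors, each taken at the window with most of its exons, 0 were called in tm1200 or in repaired against never-mutated worms, with median log2 differences of 0.04 and 0.08 against -0.05 and -0.01 over all windows. Called higher windows were 0.37% of all in tm1200 and 0.0315% in repaired worms. The list includes the mutated genes hrde-1, set-32, met-2 and set-25. In tm1200 worms hrde-1 stood at -0.77 in its listed window, not called. Another hrde-1 window, III 4175001 to 4176000, was called lower at -1.64. Of 11 known target genes, 7 were called higher and 0 lower in tm1200 (median 2.61), and 2 were called higher and 0 lower in repaired worms (median 1.23). In repaired against tm1200 worms 5 of the 11 targets were called lower (median -1.67), where 0.273% of all windows were called lower and 0.0242% higher. One of the targets, sosi-1, averaged 35.5, 16.9 and 1.96 RPKM in tm1200, repaired and never-mutated worms, with a log2 difference from never-mutated worms of 3.71 in tm1200 (limma, adjusted p = 3.32e-06) and 1.55 in repaired worms (adjusted p = 0.212). Another, F07B7.1, averaged 71.4, 39.8 and 0.40 RPKM, and was called higher in both. The repaired means of these targets join unlike libraries. In repaired worms 6 of the 11 targets were called higher in set-32 mutants than in set-32(+) worms and 0 lower (median log2 difference 3.79), where 0.075% of all windows were called higher and 0% lower (median 0.03). At sosi-1 repaired set-32 mutants averaged 29.2 ± 2.44 RPKM (SD, n = 5) and repaired set-32(+) worms 1.54 ± 1.75 RPKM (SD, n = 4), and at F07B7.1 they averaged 70.7 ± 10.3 and 1.21 ± 1.40 RPKM.

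Facts of the whole set bear on these values as follows. The denominators held 458687 to 1152825 reads. In 1 window of each mutated gene, all libraries labelled as mutants lay below all others. For hrde-1 it held 58.3 to 87.6 RPKM in the 5 tm1200 libraries and 136 to 329.9 RPKM in the other 14. For met-2 the ranges were 3.77 to 13.9 and 37.9 to 74.6 RPKM, and for set-25 0 and 15.8 to 44.7 RPKM. The gap was narrow for set-32, with 0.88 to 6.94 and 8.28 to 16.4 RPKM. Markers of other tissues varied. Over 11 muscle genes, all detected, the summed level ran from 976 to 2072 RPKM in tm1200, 705 to 1953 in repaired and 996 to 2393 in never-mutated worms, with a median log2 difference of -0.76 for repaired against never-mutated worms and 0 genes called. Over 18 sperm markers, none at 0 throughout, it ran from 109.7 to 189.7, from 33.9 to 685.5 and from 30.7 to 402 RPKM in the same order. The sum was 471.7 RPKM in hrde-1(+R) at F4, the repaired library with the most pseudogene RNA, and 685.5 RPKM in ok1457 at F8, where R10E4.1 was lowest among repaired libraries. Oocyte and germline markers (16 genes) summed to 3215 to 4442, 2632 to 4227 and 2640 to 4332 RPKM. For 0 of the 7 marker lists was a gene called between hrde-1 states. The part of tissue makeup in the levels of the loci was not tested.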

How the data were processed

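RNA was extracted from young adult hermaphrodites and rRNA removed with RNase H, per the labels' protocols. The submitters' processing notes name Bowtie 0.12.7 for alignment. The deposited table gives RPKM values by the authors for 100257 windows of 1 kb. Genome build, strand use, read filters and the handling of multiple matches were not given in the sources used here. Columns of 24 other libraries were not used, and the 4 F20 libraries were not analysed here.

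Windows are given by their first and last base, counted from 1. They were placed on WBcel235 after 195 of 199 segments of 500 windows matched its exon density best at no shift. The segments of R10E4.1 and the pseudogenes matched with r = 0.615 and 0.616, but that of F28F8.7 with r = 0.134, so its placing is less certain. Genes name a window at an overlap of at least 250 bp, and at any overlap where windows are counted by ranges.

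Depth was read from the smallest steps of the RPKM values: 1 read was worth 0.867 to 2.18 RPKM, and 81.8% to 85.0% of positive values in a library were whole multiples. Because the rest were parts of reads, no count test was run. Pairs of libraries correlated at 0.873 to 0.944, and 0 of 171 pairs were identical.

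The 41323 windows averaging 1 RPKM or more were tested as log2(RPKM + 1) with limma 3.58.1 (eBayes, trended prior; R 4.3.3), and p-values were adjusted over all of them by the Benjamini-Hochberg method. The 10 never-repaired, 9 repaired or all 19 libraries entered a fit, with hrde-1, set-32 and met-2 set-25 states as terms. Group levels in RPKM are plain means. The scripts were tested on simulated data. The windows, gene lists and naming rule (the chosen windows, genes within 10 kb, and the 5 windows most alike) were chosen with earlier results of these data known.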

Additional observations from a re-analysis of the deposited data

Results flagged for a closer look

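Of 48 sets of 4 to 10 libraries checked for a value far from the rest, 4 held one, and chance marks about 1 in 20 sets. Windows of 1 gene are not separate cases. In the repaired worms R10E4.1 was highest in the met-2 set-25 line at F5, at 6.38 RPKM, and the next library held 4.14 RPKM. In the never-mutated worms the met-2 set-25 library stood far above the others at R10E4.1, at 48.3 RPKM (48.345) against 19.4 RPKM in the next one. The same library was far above the others in each of the 2 chosen windows of the gene, at 66.6 RPKM (66.55) in the first and 30.1 RPKM (30.14) in the second, where the next values were 27.2 and 11.5 RPKM. Summed sperm markers were also highest in this library among the never-mutated ones, at 402 RPKM. The part of this in R10E4.1 was not tested.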

How the results depend on the processing

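Of 1082 recomputed differences at the described windows, 32 changed sign, of which 0 were called and 16 were repaired minus tm1200 values, 5 others moved by more than the replicate spread, and 1045 did neither. Differences of tm1200 and of repaired from never-mutated worms kept their sign at all 9 chosen windows. With a pseudocount of 0.1 the F28F8.7 window stood at -3.93 in tm1200 against never-mutated worms and 3.41 in repaired against tm1200 worms, and the second R10E4.1 window at -4.82 and 2.29. Without the met-2 set-25 libraries repaired minus tm1200 was -0.23 there, and the set-32 difference in never-repaired worms was 0.059 at the first R10E4.1 window. With red11 alone the set-32 difference in never-repaired worms was -0.11 at the central WBGene00014309 window, and the interaction was 0.23 at R10E4.1 and 0.020 at WBGene00014309. With ok1457 alone the F28F8.7 window had 0.30 for set-32 in repaired worms and 0.99 for the interaction. The cause was not tested.

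Leaving out 1 library at a time changed the sign of differences that were not called. Repaired minus tm1200 ranged from -0.14 to 0.082 at the first R10E4.1 window, from -0.051 to 1.61 at the second, from -0.096 to 0.50 at the first WBGene00014307 window and from -0.10 to 0.12 at the central WBGene00014309 window, and repaired minus never mutated from -0.085 to 0.74 at an exon window of F28F8.7 (V 15579001). The others were at the first R10E4.1 window -1.33 to 0.75 for the interaction and -0.34 to 0.18 for met-2 set-25 in repaired worms, at the central WBGene00014309 window -0.025 to 0.23 for met-2 set-25 in never-repaired worms and -0.37 to 0.038 for set-32 in repaired worms, and at F28F8.7 -0.063 to 0.26 for met-2 set-25 in never-repaired worms.

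The labels give no replicate numbers. A replicate block of 4 strain backgrounds, each in a tm1200 and a never-mutated form, gave -2.40 at the first R10E4.1 window, -1.33 at the central WBGene00014309 window and -2.24 at F28F8.7, and 120 called windows in place of 163.

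Counts of called windows depended on the settings. For tm1200 against never-mutated worms the 163 dropped to 20 when all windows were kept, to 28 at a minimum of 0.2 RPKM, to 61 at a pseudocount of 0.1, to 14 when the met-2 set-25 libraries were left out, and to 107 when only the tm1200 library with met-2 set-25 was. Of the 9 chosen windows, 8 were called there, against 0 with all windows kept, 1 at 0.2 RPKM, 5 at the pseudocount, 6 with the block, 0 without met-2 set-25 and 5 to 8 with a library left out. For repaired against never-mutated worms the 20 became 13 at that pseudocount, 10 when the met-2 set-25 libraries were left out, 13 without the never-mutated met-2 set-25 library and 39 without hrde-1(+R) F4. The 6 chosen windows called there became 4 with all windows kept, 6 at 0.2 RPKM, 4 at the pseudocount, 0 without met-2 set-25 and 3 to 6 with a library left out. The 123 of repaired against tm1200 worms became 34 at the pseudocount of 0.1, 24 without the met-2 set-25 libraries, and 66 if hrde-1(tm1200) alone was dropped. For set-32 the 0 in never-repaired worms became 5 with no filter, 9 with ok1457 alone and up to 2 with a library left out. In repaired worms the 31 became 17, 12 and 6 under the pseudocount and both filters, 13 and 18 with ok1457 or red11 alone, and 58 without red11 met-2 set-25 F5. For met-2 set-25 the 29 in never-repaired worms became 5, 2 and 8 under the same settings and 4 to 32 with a library left out, and the 11 in repaired worms became 7, 5 and 100, and 7 to 55. The 12 of the interaction became 3 with the pseudocount, 38 with no filter and 0 with ok1457 alone. Depth limits all values of a few reads.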
